A study of Mus musculus with 6 samples.

Results

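Box H/ACA small nucleolar RNAs (snoRNAs) and small Cajal body RNAs (scaRNAs) were measured in heads of E9.0 mouse embryos. Of 24421 gene rows in the count table, 45 had symbols that start with *Snora* or *Scarna*. The rule kept those with at least 10 counts in at least 3 of the 6 libraries, which left 38 members, 31 *Snora* and 7 *Scarna* genes. Members were thus chosen by their counts in all 6 libraries, and their presence is no finding. In 37 members every library reached 10 counts, and 0 members reached the rule through the mutant group alone. Of the 7 rows below it, 4 (*Snora19*, *Snora24*, *Snora26* and *Snora35*) had 0 counts in all libraries. The member nearest the limit was *Scarna8*, with 7, 10 and 3 counts in WT and 9, 16 and 17 in mutants, followed by *Snora34* and *Snora15*. The row nearest to it from outside was *Scarna3b*, with 2, 0 and 0 counts in WT and 4, 2 and 0 in mutants, followed by *Scarna3a* and *Snora36b*.

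The study compared 3 libraries of WT heads (*Snrpb* +/+) with 3 libraries of heads labelled mutant (*SnrpB*+/-, Het in the plots), and asked what happens to RNA before the heads become malformed. *Snrpb* codes for SmB and SmB′, proteins of the ring that spliceosomal small nuclear RNAs (snRNAs) carry. In mutants 1 *Snrpb* allele is *loxP*-flanked and is deleted only where the *Wnt1-Cre2* transgene is active, which is the neural tube with its neural crest. All remaining head cells retain the intact pair of alleles. Each library held RNA of 2 pooled heads of 1 genotype, and the labels give C57BL/6 as strain and CD1 as cell line. CD1 is a mouse stock, and the paper places all analysed embryos on a mixed background of CD1 and C57BL/6J. Embryos were untreated, and whether WT embryos carried the *loxP* allele or the transgene is not given in the sources used here. Total RNA, extracted with an RNeasy kit and freed of ribosomal RNA, was used for stranded libraries. Recovery of RNAs as short as the members was not tested, so their levels are those of counted reads only.

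H/ACA RNAs fold into hairpins that pair with a target RNA and guide the conversion of uridine to pseudouridine. The catalytic protein is dyskerin (*Dkc1*), which works with Nhp2, Nop10 and Gar1. *Snora* RNAs mostly act in the nucleolus on ribosomal RNA, whereas scaRNAs stay in Cajal bodies and guide the modification of spliceosomal snRNAs, some of them with box C/D elements that guide 2′-O-methylation. Most mouse guide RNAs are cut out of introns of host genes after splicing, and many hosts code for ribosomal proteins or are non-coding *Snhg* RNAs.

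The sequences below show the elements that these RNAs share and the scaRNAs that lack them. They come from the Gencode M21 transcripts, whose assembly (GRCm38) is the one also called mm10, and are written as DNA on the strand of the gene. In the first 6, capitals mark the letters ACA near the 3′ end and, where the middle of the RNA (its central 33.3%) holds it, the hinge motif ANANNA nearest to the centre. *Snora78*, *Snora7a*, *Snora61* and *Snora75* are among the members with the smallest *P*, *Scarna13* is the most abundant scaRNA, and *Scarna8* is a scaRNA with both H/ACA elements. In the last, *Scarna9*, capitals mark the box C letters TGATGA and the box D letters CTGA in place of these.
Snora78 (chr17:24719676-24719803, minus strand): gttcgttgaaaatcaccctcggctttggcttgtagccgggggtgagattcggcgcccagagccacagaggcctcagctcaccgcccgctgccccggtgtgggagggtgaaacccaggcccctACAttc
Snora7a (chr6:115807975-115808114, minus strand): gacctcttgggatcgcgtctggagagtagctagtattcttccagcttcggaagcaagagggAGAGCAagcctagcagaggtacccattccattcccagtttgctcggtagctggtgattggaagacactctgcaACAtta
Snora61 (chr4:132310240-132310369, plus strand): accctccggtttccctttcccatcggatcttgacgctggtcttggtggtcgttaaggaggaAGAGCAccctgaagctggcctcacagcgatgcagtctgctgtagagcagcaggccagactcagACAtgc
Snora75 (chr1:86351169-86351301, minus strand): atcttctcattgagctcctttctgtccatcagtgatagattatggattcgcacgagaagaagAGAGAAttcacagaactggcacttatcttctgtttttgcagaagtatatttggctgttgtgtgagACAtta
Scarna13 (chr12:105031075-105031349, minus strand): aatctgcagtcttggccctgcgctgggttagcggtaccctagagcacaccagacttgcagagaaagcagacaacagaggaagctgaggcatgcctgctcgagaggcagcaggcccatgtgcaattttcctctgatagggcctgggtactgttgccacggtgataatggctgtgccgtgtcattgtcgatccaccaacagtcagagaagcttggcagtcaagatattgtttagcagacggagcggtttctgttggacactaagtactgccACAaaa
Scarna8 (chr4:86586453-86586583, minus strand): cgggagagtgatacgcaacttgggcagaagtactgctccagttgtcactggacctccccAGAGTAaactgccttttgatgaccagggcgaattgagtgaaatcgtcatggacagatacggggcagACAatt
Scarna9 (chr9:15326264-15326333, minus strand): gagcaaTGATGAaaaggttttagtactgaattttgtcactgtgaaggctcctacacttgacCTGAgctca

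Of the 31 *Snora* members, 29 had ACA in the last 12 bases, 23 of them with exactly 3 bases after it. The hinge letters ANANNA lay in that central stretch of 28, and 26 held both, or 83.9%. Among 819 other Gencode transcripts of 120 to 150 bases, 19.8% had ACA in the last 12 bases, 49.2% had ANANNA in the central stretch and 7.94% had both. All motifs were searched on the RNA strand only, and ANANNA can overlap ACA by its letters. Members were 70 to 414 bases long with a median of 133.5 bases, and their GC content ran from 34.4% to 64.1%. *Snora78*, *Snora65* and *Snora74a* had the tail but no match to the hinge letters in the central stretch.

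The 7 scaRNAs were less alike. ACA lay in the last 12 bases of 3 of them, and 4 (*Scarna6*, *Scarna17*, *Scarna10* and *Scarna9*) had TGATGA in the first 15 bases together with CTGA in the last 15. That pair of letters was absent from all 31 *Snora* members and present in 33 of 58 box C/D snoRNA genes. The letters TGAG, which form the Cajal body box that Wrap53 binds, were found in 6 of 7 scaRNAs and 12 of 31 *Snora* members. They were also in 49.5% of the 819 other transcripts, so 4 letters alone set no scaRNA apart.

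Every member was tested in a fit over 15584 genes with edgeR's quasi-likelihood test, and levels are given in CPM, counts scaled to a common library size of 1000000, with library sizes adjusted by TMM. Reads counted per library ran from 36378803 to 58946111 in WT and from 42398206 to 74909774 in mutants. *Snrpb* itself averaged 427.4 ± 12.2 CPM in WT and 426.4 ± 12.5 CPM in mutants (± is the SD of 3 libraries, here and for all means), and its level in whole heads did not separate the genotypes (log2 fold change −0.004, SE 0.039, adjusted *P* = 0.990, edgeR). The paper found that the deleted allele gives a shorter transcript, whose reads can still count for the gene. Deletion is also limited to part of the head, so this level does not measure intact *Snrpb* in the deleted cells. With a widely active Cre, the paper reported reduced *Snrpb* in whole embryos by RT-PCR. Markers of neural tube, neural crest, head mesenchyme, surface ectoderm and endothelium were present in all libraries, and the 4 posterior *Hox9* genes summed to at most 0.137 CPM. Of the listed marker genes that were tested, 0 reached an unadjusted *P* under 0.05 with edgeR or an adjusted *P* under 0.05. The sum of 4 primitive erythroid genes ran from 860.4 to 1468 CPM in WT and from 868.7 to 1189 CPM in mutants. That of 4 cardiac genes ran from 2.97 to 25.4 CPM in WT and from 9.35 to 45.1 CPM in mutants. For 3 visceral endoderm genes it ran from 0.568 to 9.28 CPM in WT and from 0.526 to 1.97 CPM in mutants. The part of these cell types in the results was not tested. Labels do not say that libraries of 1 genotype came from separate litters, while the study's methods pool embryos of different litters. In bulk RNA of whole heads, fewer cells that make an RNA and less of it per cell cannot be told apart.

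The members tended to be higher in mutant heads, by small amounts, and with edgeR no member passed the correction for multiple tests. Of the 38 members, 35 had a log2 fold change above 0 (92.1%), where 50.2% of all genes tested did. The median was 0.35, against 0.0004 over all genes. At an unadjusted *P* under 0.05, 17 members were higher and 0 were lower in edgeR's test, a share of 44.7% where over all genes 4.34% were higher and 4.09% lower. No member had an adjusted *P* under 0.05 with edgeR (background 0.00642%), and the smallest value was 0.309, for *Snora78*. DESeq2 put 1 member, *Snora78*, past that threshold (background 0.651%) and 16 at an unadjusted *P* under 0.05, all higher (background 2.27%). In 21 members, or 55.3%, all mutant libraries lay above all WT libraries, where 8.32% of all genes did, and in 0 members did they lie below. Members were measured in the same libraries and are not independent, so these counts are not so many separate results. The median log2 CPM of the members had a pooled SD within groups of 0.122. *Snora15*, *Snora47* and *Scarna2* were the members not above 0, with log2 fold changes of −0.07, −0.01 and −0.002.

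**Figure D1:**
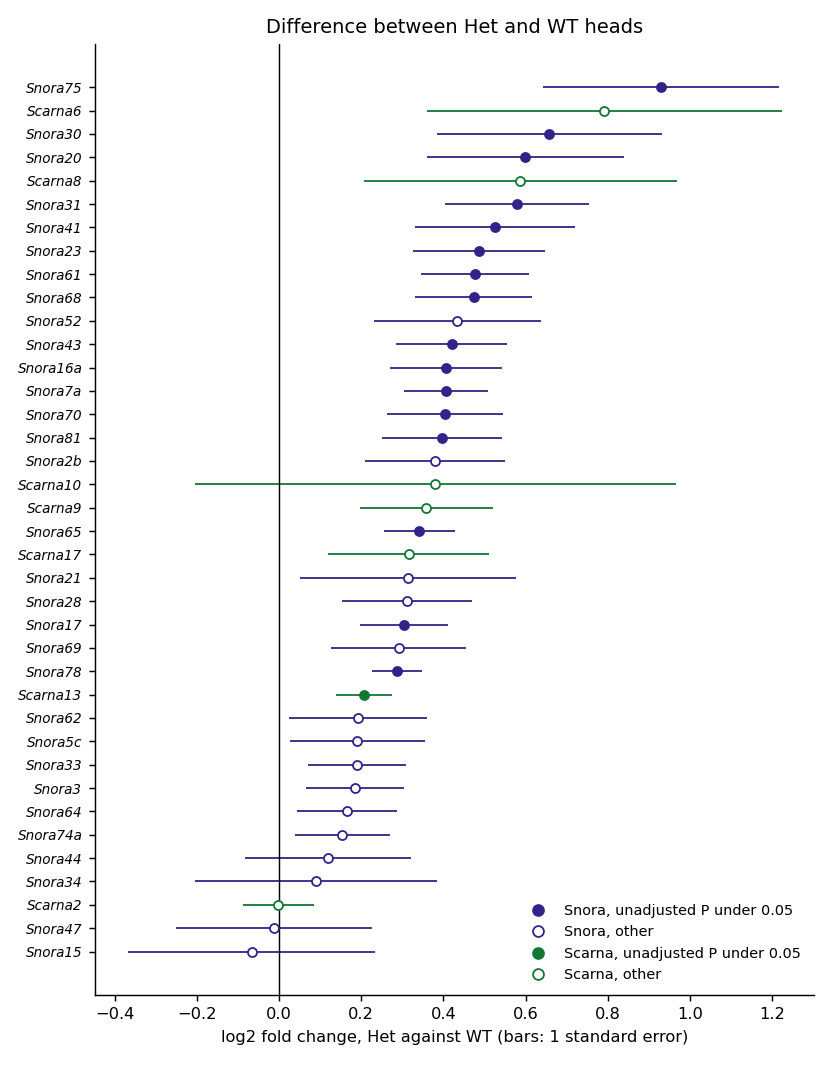
The 38 members are ordered by log2 fold change of Het against WT (horizontal axis, edgeR), with bars of 1 standard error, filled where the unadjusted *P* was under 0.05. All but 3 points lie to the right of 0, and filled points are 16 *Snora* genes and *Scarna13*.

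Leaving out mutant replicate 1 lowered the number of members at an unadjusted *P* under 0.05 from 17 to 10, where 3.71% of all genes were higher at that threshold in the same fit. Without mutant replicate 3 it was 21, where 3.15% of all genes were. All of these were higher in mutants, and 34 to 36 members stayed above 0 in every fit without 1 library. Depth moved with the summed level of the members. From low to high, both put WT replicate 1 first, then WT replicate 3, WT replicate 2, mutant replicate 3 and mutant replicate 2, in the WT group as well as across groups. Mutant replicate 1 was the exception: with 42398206 counts it was less deep than WT replicate 2, with 58946111, but had the highest sum, and it lay above WT replicate 2 in 36 of 38 members. The part of depth in the difference was not tested. Mutant replicate 3 did so in 27 and was the highest of the mutant libraries in 3 members. Variation within groups was moderate, with a median coefficient of variation of 13.1% in WT and 11.5% in mutants.

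*Snora78* had the smallest *P* and was the most abundant *Snora* member. *Snora78* lies in an intron of *Snhg9*, a small non-coding host gene. Its level was 26.2, 25.8 and 27.8 CPM in WT and 34.7, 31.3 and 31.3 CPM in mutants, and the groups did not overlap. The difference of 1.22-fold was the most precise of all members named (log2 fold change 0.29, SE 0.06, adjusted *P* = 0.309, edgeR), and DESeq2 gave an adjusted *P* of 0.0438. *Snora65* lies in *Rpl12*, which codes for a protein of the large ribosomal subunit. It was measured at 8.95, 8.82 and 8.27 CPM in WT and 10.3, 11.7 and 10.97 CPM in mutants. Again each mutant library was above each WT library, at a log2 fold change of 0.34 (SE 0.09, adjusted *P* = 0.420, edgeR). *Snora7a*, within the ribosomal protein gene *Rpl32*, was at 4.64, 5.07 and 4.89 CPM in WT. Its mutant libraries were at 5.97, 6.77 and 6.60 CPM, so the groups were separate, and the log2 fold change was 0.41 (SE 0.10, adjusted *P* = 0.420, edgeR).

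*Snora61* is 1 of 3 members in the non-coding gene *Snhg12*. Its levels of 3.52, 4.24 and 4.16 CPM in WT and 5.04, 6.29 and 5.25 CPM in mutants did not overlap (log2 fold change 0.48, SE 0.13, adjusted *P* = 0.433, edgeR). Its neighbour *Snora16a* was at 3.90, 3.88 and 2.95 CPM in WT and 5.00, 4.83 and 4.45 CPM in mutants, again without overlap, and differed by 0.41 on the log2 scale (SE 0.14, adjusted *P* = 0.468, edgeR). *Snora44*, the other member of this host, did not follow them closely: with 2.99, 3.44 and 4.84 CPM in WT and 4.85, 4.05 and 3.37 CPM in mutants its groups overlapped and its log2 fold change was 0.12 (SE 0.20). *Snora43* and *Snora17* share the host *Snhg7*. *Snora43* was at 3.87, 3.92 and 3.38 CPM in WT and 5.56, 5.17 and 4.27 CPM in mutants. *Snora17* was at 8.93, 8.34 and 6.92 CPM in WT and 10.5, 9.83 and 9.60 CPM in mutants. In both genes every mutant library was above the WT libraries, with log2 fold changes of 0.42 (SE 0.13, adjusted *P* = 0.446, edgeR) and 0.30 (SE 0.11, adjusted *P* = 0.491, edgeR).

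*Snora75* had the largest log2 fold change of the members, 0.93 (SE 0.29, adjusted *P* = 0.437, edgeR). It lies in the gene of nucleolin, *Ncl*, an abundant nucleolar protein. The levels were low, at 0.604, 1.06 and 0.622 CPM in WT and 1.59, 1.82 and 1.07 CPM in mutants, which are 22, 62 and 23 counts in WT and 67, 138 and 71 in mutants. The highest WT and the lowest mutant library nearly touched. *Snora31*, in *Tpt1*, was at 1.29, 1.31 and 1.19 CPM in WT and 1.54, 2.04 and 2.06 CPM in mutants (log2 fold change 0.58, SE 0.17, adjusted *P* = 0.437, edgeR). The gene of the nuclear import receptor *Ipo7* holds *Snora23*, which was at 1.51, 1.31 and 1.16 CPM in WT and 1.80, 1.91 and 1.87 CPM in mutants (log2 fold change 0.49, SE 0.16, adjusted *P* = 0.463, edgeR). Neither gene had overlapping groups.

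Among the remaining members of small *P*, *Snora68* was at 2.99, 3.32 and 2.68 CPM in WT and 4.05, 4.72 and 3.75 CPM in mutants (log2 fold change 0.47, SE 0.14, adjusted *P* = 0.437, edgeR). *Snora70*, in the ribosomal protein gene *Rpl10*, was at 1.98, 2.54 and 2.22 CPM in WT and 3.10, 3.07 and 2.80 CPM in mutants (log2 fold change 0.40, SE 0.14, adjusted *P* = 0.484, edgeR). Both genes had mutant libraries above the WT range throughout. *Snora81*, in the translation helicase gene *Eif4a2*, was at 4.31, 4.00 and 2.97 CPM in WT and 5.21, 4.87 and 4.83 CPM in mutants, also without overlap (log2 fold change 0.40, SE 0.15, adjusted *P* = 0.501, edgeR). A further 3 members, *Snora41*, *Snora20* and *Snora30*, had an unadjusted *P* under 0.05 with log2 fold changes of 0.52, 0.60 and 0.66. *Snora62*, known as E2 and held by the ribosomal protein gene *Rpsa*, was at 1.43, 1.75 and 1.35 CPM in WT and 1.89, 1.64 and 1.70 CPM in mutants, and its groups overlapped (log2 fold change 0.19, SE 0.17, adjusted *P* = 0.790, edgeR).

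**Figure D2:**
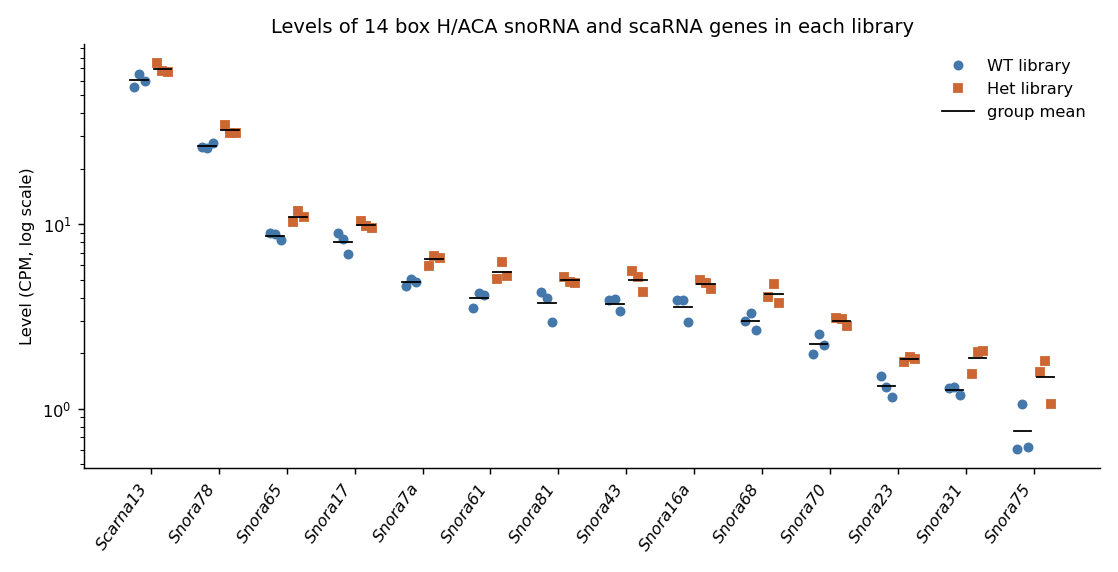
Levels in CPM (vertical axis, log scale) of the 14 members with the smallest *P*, with 1 point per library and a line at each group mean. In each of the 14 genes the 3 Het libraries lie above the 3 WT libraries, and *Snora75* shows the widest relative gap between the means. These genes were picked by *P* in the same comparison, so their separation follows largely from that choice. Of all 38 members 21 were separated in this way, and 8.32% of all genes were.

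The scaRNAs were few but held 50.3% of the members' counts. *Scarna13*, a tandem H/ACA RNA of Cajal bodies hosted by *Snhg10*, was the most abundant member per annotated length, at 236.1 CPM per kb over all libraries, next to 230.5 for *Snora78*, 155.1 for *Scarna9* and 80.8 for *Scarna2*. After these came *Snora74a* with 76.4 and *Snora65* with 75.7 CPM per kb, and the median of the members was 21.8. *Scarna13* was at 55.8, 65.4 and 59.5 CPM in WT and 74.6, 67.6 and 66.7 CPM in mutants. Its groups stayed apart, though WT replicate 2 came close to mutant replicate 3, and the log2 fold change of 0.21 was small (SE 0.07, adjusted *P* = 0.465, edgeR). It was the scaRNA that reached an unadjusted *P* under 0.05 with edgeR, 1 of 7 (14.3%), and 16 of 31 *Snora* genes did so (51.6%). All were higher in mutants, where 4.34% of all genes were at that threshold. A difference between *Scarna* and *Snora* genes was not tested. The medians of the log2 fold changes were 0.36 for *Scarna* and 0.34 for *Snora* genes.

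*Scarna2* and *Scarna9* are guides with box C/D elements, known for methylation of U2 snRNA. *Scarna2* was at 32.6, 35.6 and 32.1 CPM in WT and 36.5, 29.2 and 34.8 CPM in mutants, with overlap and a log2 fold change of −0.002 (SE 0.09, adjusted *P* = 0.997, edgeR), whose sign turned with the scaling of the libraries. *Scarna9*, in *Cep295*, was at 11.3, 9.89 and 7.32 CPM in WT and 12.5, 13.6 and 10.5 CPM in mutants (log2 fold change 0.36, SE 0.16, adjusted *P* = 0.603, edgeR). Its lowest mutant library lay below the highest WT library. *Scarna17* was at 2.03, 2.03 and 1.68 CPM in WT and 2.87, 2.53 and 1.81 CPM in mutants and overlapped as well (log2 fold change 0.32, SE 0.20, adjusted *P* = 0.690, edgeR). *Scarna8*, the member with the fewest counts, was at 0.192, 0.170 and 0.0811 CPM in WT and 0.213, 0.211 and 0.256 CPM in mutants. The groups did not overlap, but the log2 fold change of 0.59 carried an SE of 0.38 (adjusted *P* = 0.700, edgeR).

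*Scarna10* and *Scarna6*, which combine H/ACA and C/D elements, varied most between libraries. *Scarna10* was at 8.21, 21.3 and 17.1 CPM in WT and 22.1, 30.1 and 8.95 CPM in mutants. *Scarna6* was at 2.42, 4.84 and 2.95 CPM in WT and 5.38, 9.05 and 3.44 CPM in mutants. In both, WT replicate 1 was the lowest library, mutant replicate 2 the highest and mutant replicate 3 near the low WT libraries, so the groups overlapped. The log2 fold changes were 0.38 (SE 0.58, adjusted *P* = 0.891, edgeR) and 0.79 (SE 0.43, adjusted *P* = 0.675, edgeR), and that of *Scarna10* became −0.03 without mutant replicate 2.

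The RNA of RNase P, *Rpph1*, and the related gene *Rprl3*, chosen after their values were seen, were also uneven. *Rpph1* was at 1055, 2847 and 1800 CPM in WT and 3497, 3965 and 1760 CPM in mutants, and *Rprl3* at 47.3, 125.3 and 84.1 CPM in WT and 151.8, 154.6 and 75.2 CPM in mutants. From low to high, both genes ranked the 6 libraries as *Scarna10* did, an order shared by 36 of the 15584 genes tested, or 0.231%. Because of the way both were chosen, that share is no support for a link. Of 9 structural RNA genes tested these were the 2 with that order. The related *Rprl2*, and also *Rmrp* and *Terc*, ranked the libraries otherwise. Among the members, *Snora74a* had that order too. *Scarna6* departed from it in the place of WT replicate 3 and mutant replicate 3. A cause of this shared variation was not tested.

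**Figure D3:**
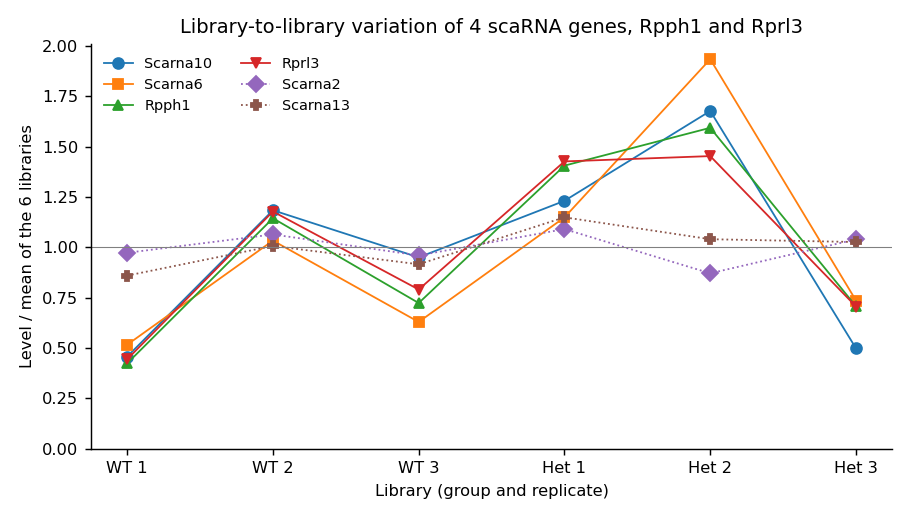
Level of each gene divided by its mean over the 6 libraries (vertical axis), for each library (horizontal axis), with solid lines for *Scarna10*, *Scarna6*, *Rpph1* and *Rprl3* and dotted lines for *Scarna2* and *Scarna13*. The solid lines are lowest in WT replicate 1 and highest in Het replicate 2, while the dotted lines stay near 1. In Het replicate 3 the solid lines are low again, though *Scarna6* is lower still in WT replicate 3.

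Summed over the members, the level was 229.0, 261.0 and 236.9 CPM in WT and 305.8, 302.9 and 263.5 CPM in mutants. The mutant libraries were higher, at 1.20 times the WT mean, but mutant replicate 3 exceeded WT replicate 2 only slightly. As a share of all counts this was 0.0229%, 0.0260% and 0.0235% in WT and 0.0305%, 0.0307% and 0.0264% in mutants. For mutant replicate 3 the 95% Wilson interval was 0.0260% to 0.0268% and for WT replicate 2 it was 0.0256% to 0.0264%, so these 2 intervals overlap. Intervals cover counting error only. The 31 *Snora* genes summed to 116.5, 121.8 and 116.2 CPM in WT and 151.6, 150.7 and 137.0 CPM in mutants, a ratio of 1.24 without overlap. The *Scarna* sums of 112.6, 139.2 and 120.7 CPM in WT and 154.2, 152.2 and 126.5 CPM in mutants overlapped, at a ratio of 1.16.

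**Figure D4:**
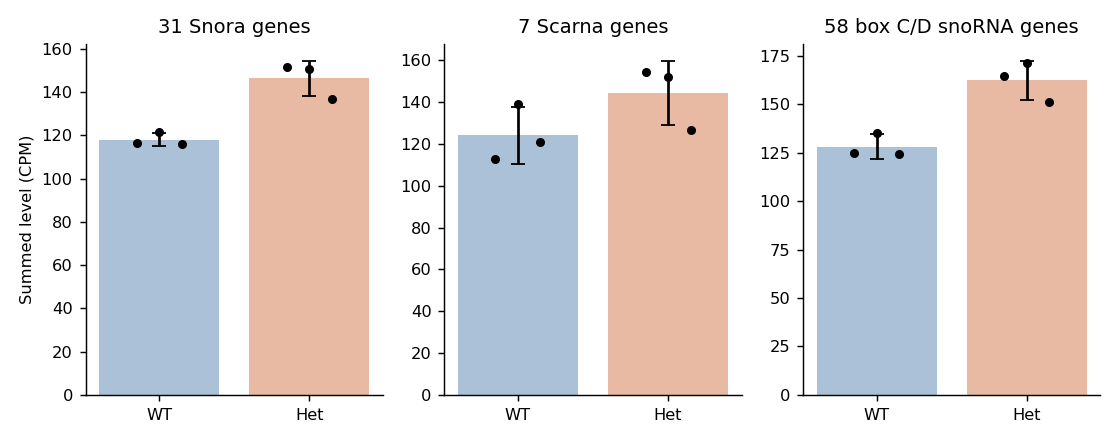
Summed level in CPM of the *Snora*, *Scarna* and box C/D snoRNA genes, with bars at the group mean, error bars of 1 SD and points for the 3 libraries of each group. The Het points lie above the WT points for *Snora* and box C/D genes and overlap with them for *Scarna* genes.

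Box C/D snoRNA genes, which guide methylation and pass the same count rule in 58 cases, were also mostly above 0. Of these 58, 53 (91.4%) had a log2 fold change above 0, where 50.2% of all genes did, and the median was 0.31. At an unadjusted *P* under 0.05 with edgeR, 18 were higher (31.03%, background 4.34%) and 0 lower (background 4.09%). With edgeR 0 had an adjusted *P* under 0.05 (background 0.00642%), and DESeq2 put 2 past that threshold (background 0.651%). Their summed level was 1.27 times as high in mutants, and a difference between the members and these genes was not tested. Some members, such as *Scarna2* and *Scarna9*, are themselves guides with box C/D elements. Both lists were measured in the same libraries, so they are not independent of each other.

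The host genes had log2 fold changes below those of their members in most cases. For 36 members a counted host was found, 32 genes in all, of which 11 code for ribosomal proteins, 5 are *Snhg* RNAs and 16 are other genes. For 3 members (*Snora43*, *Snora17* and *Snora74a*) the host came from RefSeq gene spans without strand, and *Scarna2* and *Scarna17* had none. In 30 of the 36 the member's log2 fold change was above that of its host, and the median of the differences was 0.25. The median log2 fold change of the hosts, counted once for each member, was 0.05. Across the 36 members the fold changes of member and host had a Pearson *r* of −0.06, a description over genes that share hosts and libraries. Of the 32 hosts, 0 had an adjusted *P* under 0.05 with edgeR, and 9 had an unadjusted *P* under 0.05 (background 8.43%). Of these, 8 were higher, or 25.0% of the hosts where 4.34% of all genes were, and 1 was lower. DESeq2 put 3 past the adjusted threshold (background 0.651%).

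**Figure D5:**
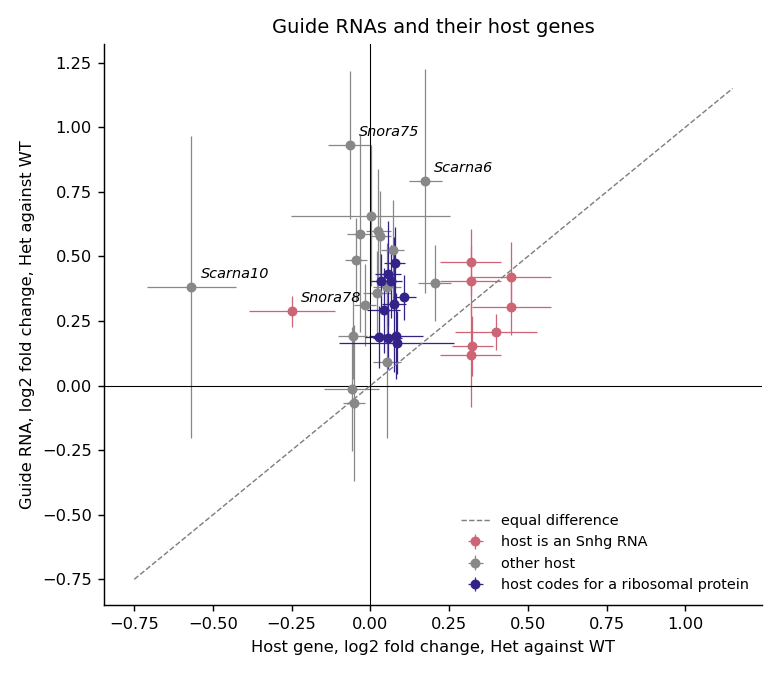
Each point is a member with its host, with the log2 fold change of the host on the horizontal axis and of the guide RNA on the vertical axis, bars of 1 standard error, and a dashed line where both are equal. Most points lie above the dashed line, the ribosomal protein hosts sit close to 0 on the horizontal axis, and the *Snhg* hosts other than *Snhg9* lie to the right.

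In ribosomal protein hosts, the 11 members had a median log2 fold change of 0.31 and the 11 hosts one of 0.07. *Rpl12* averaged 1089 ± 38.6 CPM in WT and 1174 ± 16.8 CPM in mutants. Its log2 fold change was 0.11, against 0.34 for *Snora65* within it. *Rpl32* differed by 0.03 on that scale, with 0.41 for *Snora7a*. *Rpl10* differed by 0.07, and its *Snora70* by 0.40. Per kilobase of exon, 0 of these 11 members reached the level of their host, and over all hosts of known exon length 10 of 33 members did.

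The *Snhg* hosts had larger values than these. *Snhg12* was at 25.9 ± 3.67 CPM in WT and 32.4 ± 1.18 CPM in mutants (log2 fold change 0.32), *Snhg7* at 27.6 ± 4.63 and 37.7 ± 2.98 CPM (0.45), and *Snhg10* at 2.32 ± 0.21 and 3.07 ± 0.12 CPM (0.40). With *Snhg4*, 4 of the 5 *Snhg* hosts (80.0%) had an unadjusted *P* under 0.05 with edgeR and were higher, where 4.34% of all genes were. Their 8 members had a median of 0.30 and the 5 hosts one of 0.32. *Snhg9* was the exception, with 2.62 ± 0.25 CPM in WT and 2.20 ± 0.05 CPM in mutants (log2 fold change −0.25, SE 0.14, adjusted *P* = 0.661, edgeR), beside 0.29 for *Snora78* inside it. The *Rps2* gene lies antisense to *Snhg9*, and how strand was set in the counting is not given in the sources used here.

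Among other hosts, with a median of −0.01, *Ncl* (−0.07), *Ipo7* (−0.05) and *Tpt1* (0.03) had log2 fold changes near 0, beside 0.93, 0.49 and 0.58 for their *Snora75*, *Snora23* and *Snora31*. *Eif4a2* had 0.20 (adjusted *P* = 0.420, edgeR) beside 0.40 for *Snora81*, and *Kansl2*, which holds *Snora34* and *Snora2b*, differed by 0.05. *Ncapd2*, a condensin gene that holds *Scarna10*, was named after its values were seen. It was at 351.1 ± 71.3 CPM in WT and 236.7 ± 1.90 CPM in mutants (log2 fold change −0.57), with an adjusted *P* of 0.433 in edgeR and 0.000394 in DESeq2. By Gencode genes on the same strand, 16 members lie in introns, 4 partly in an exon and 14 within an exon, mostly of transcripts with a retained intron. *Snora43* and *Snora17*, with RefSeq hosts, are not among these, and *Snora74a* is placed in a gene other than its host *Snhg4*. Members in introns had a median of 0.34 and those within exons 0.40. Reads of unspliced host RNA cannot be told apart from those of the guide.

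The list made for the H/ACA machinery also holds factors of 3′ end processing and decay and the box C/D proteins *Fbl*, *Nop56*, *Nop58* and *Nhp2l1*. Most of its genes had log2 fold changes close to 0. Larger values were those of *Nop10* and of the RNA gene *Terc*, given below with the structural RNAs. *Dkc1* was at 317.8 ± 8.95 CPM in WT and 315.7 ± 15.5 CPM in mutants (log2 fold change −0.01). *Nhp2* and *Gar1*, the other partners in the particle, had log2 fold changes of 0.01 and 0.01. The assembly factor *Naf1*, the nucleolar chaperone *Nolc1* and *Wrap53*, which takes scaRNAs to Cajal bodies, had 0.01, 0.00 and −0.07. *Nop10* was at 85.4, 87.1 and 87.4 CPM in WT and 103.2, 99.95 and 96.6 CPM in mutants, without overlap (log2 fold change 0.20, SE 0.04, adjusted *P* = 0.306, edgeR; DESeq2 gave 0.0356). Of the 32 listed genes tested, 0 had an adjusted *P* under 0.05 and 1 had an unadjusted *P* under 0.05 with edgeR (background 8.43%). DESeq2 put 1 past the adjusted threshold (background 0.651%). In 6 of the 32 (18.75%), among them *Nop10*, *Fbl* and *Nop56*, all mutant libraries lay above all WT libraries. Over all genes 8.32% did, and in 0 listed genes did they lie below.

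Other structural RNAs were mostly above 0 but uneven. Of 12 listed, 9 were tested, 8 of which had a log2 fold change above 0, with a median of 0.37, and 0 reached an unadjusted *P* under 0.05 with edgeR (0 with an adjusted *P* under 0.05 in DESeq2). *Terc*, the telomerase RNA and itself an H/ACA RNA, was at 10.8, 20.7 and 16.5 CPM in WT and 21.6, 17.6 and 20.4 CPM in mutants, with overlap (log2 fold change 0.30, SE 0.23, adjusted *P* = 0.765, edgeR).

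Some members have near-identical copies. For 15 of the 38 members, among them *Snora65*, *Snora61*, *Snora68*, *Snora75*, *Snora17*, *Snora70* and *Snora81*, another gene held at least 90% identity over at least 90% of the length, so reads could be shared or dropped. Of these 15, 9 had an unadjusted *P* under 0.05 and were higher (4.34% over all genes), and the median log2 fold change was 0.38. Of the 23 without such a copy, among them *Snora78*, *Snora7a* and all 7 scaRNAs, 8 did, and the median was 0.32. By level, the 6 members under 1 CPM had a median of 0.34, the 22 members from 1 to 5 CPM one of 0.40 and the 10 above 5 CPM one of 0.30. Annotated lengths come from a later Gencode release than that of the counting, so that levels per kb, and those of *Scarna2*, *Scarna9* and *Scarna17* above all, are uncertain.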

How the data were processed

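RNA of 6 head pools at E9.0 (3 WT, 3 mutant, 2 heads each) was sequenced, and groups follow the genotype label. The authors trimmed reads, aligned them to mm10 (STAR) and counted reads for each gene of Gencode M2. The paper names HTSeq for the counting and the submitters' processing notes name featureCounts. The deposited values are raw counts without normalization, and 0 columns were left unassigned. Counting error adds to the spread between libraries most in members with few counts.

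Differences were tested in R (version 4.3.3) with edgeR (version 4.0.16): TMM, filterByExpr, robust quasi-likelihood fit, two-sided, Benjamini-Hochberg over the 15584 genes kept (8837 left out). DESeq2 (version 1.42.0) was an alternative, with other scalings, filters, a replicate block and each library left out. The code was tested on simulated data. Group overlap was read from CPM. *P*-values measure only the spread between these pools. Coordinates, hosts and sequences came from Gencode M21 (hosts of 3 members from RefSeq, GRCm38.p6), and copies were searched with BLAST+ (version 2.17.0). Figures used matplotlib (version 3.10.9). Members, lists and tests were chosen with earlier results of these data known. Named were the 14 members of smallest *P* under 0.05, the 6 of highest CPM per kb, all *Scarna* genes, 3 on each side of the count limit, *Snora62*, hosts of these 14 (1 host is not reported here) and hosts of several members, core H/ACA proteins and *Terc*. Listed symbols *Snu13* and *Tent4b* were not used here.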

Additional observations from a re-analysis of the deposited data

How the results depend on the processing

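The direction of the members as a list held in every setting tried, with a median log2 fold change of 0.30 to 0.39 in the fits that left out 1 library. Members at an unadjusted *P* under 0.05 ranged from 10 to 21 in those fits, all higher, where 2.72% to 5.54% of all genes were. DESeq2 in place of edgeR put 1 member, 1 gene of the H/ACA protein list, 3 hosts and 2 box C/D genes past an adjusted *P* of 0.05, where edgeR put 0 of each. Genes of the H/ACA protein list at an unadjusted *P* under 0.05 numbered 3 with library size in place of TMM and 1 to 2 without 1 library. The cause was not tested. Values near 0 turned sign. *Snrpb* became 0.0074 with library size and 0.00093 with TMM on protein-coding genes, and ran from −0.026 to 0.019 without 1 library. *Scarna2* became 0.0085, 0.0024 and 0.00054 with library size, with protein-coding TMM and with at least 10 counts in every library, and ran from −0.067 to 0.089 without 1 library. Without 1 library *Scarna10* ran from −0.027 to 0.74, *Snora15* from −0.30 to 0.091 and *Snora34* from −0.11 to 0.24. Whether replicate numbers pair the libraries was not tested. Correlations of deviations from the group mean were 0.169, 0.032 and 0.360 for equal numbers. For unlike numbers they ran from −0.245 to 0.088. With the replicate block, 18 members were higher at an unadjusted *P* under 0.05 with edgeR, where 4.39% of all genes were. In that fit 0 members passed the adjusted threshold and their median was 0.34. A limit of 20 counts kept 36 members and counts thinned to the smallest library kept 37. Depth limits *Scarna8* and *Snora34* most.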
